A study of Homo sapiens with 16 samples.

Results

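Keratins are the intermediate filament proteins of epithelial cells, and 10 keratin genes of mammary epithelium were followed in the malignant cells of mouse mammary tumors: Krt5, Krt14, Krt15, Krt17 and Krt6a, named basal here, and Krt7, Krt8, Krt18, Krt19 and Krt23, named luminal here. They were chosen by name, with earlier results of these data known, as 10 of the 53 keratin genes among the 32285 genes counted. Counts of members set against all genes are therefore descriptions. The study transplanted 2 tumors, LPA1-T22 (T22, sensitive to the PARP inhibitor olaparib) and LPA1-T127 (T127, resistant), into the mammary fat pad of female FVB mice and sequenced single cells of the tumors in 16 pools. The 4 short-term T22 pools held T22 tumors and the 4 short-term T127 pools T127 tumors, from mice given vehicle or olaparib (50 mg/kg daily by mouth) for 4 or 8 days. The 8 long-term pools held both tumors, grown alone or on opposite sides of one mouse, after 20 days of vehicle or olaparib. Mice were bought at 6 weeks of age, and age at harvest is not given in the sources used here. Both models come from mice that carry an LPA1 receptor transgene in the mammary epithelium, and each is 1 transplantable tumor, so a difference between T22 and T127 is a difference between 2 tumors. The labels give Homo sapiens as the organism, whereas the gene symbols and the genome build are those of the mouse.

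The deposited names place malignant cells in 4 clusters. In the short-term T22 pools all malignant cells carried the names Malign_2 (1736 cells) or Malign_3 (218 cells), and in the short-term T127 pools Malign_0 (2515 cells) or Malign_1 (2363 cells). In the long-term pools Malign_0 held 2809 cells, Malign_1 1794, Malign_2 1352 and Malign_3 907 once each cell barcode was counted at its deepest copy. Long-term pools 1 and 2 had 3939 barcodes in common, pools 1 and 3 had 987 and pools 2 and 3 had 1082, while other pairs of pools had 0 to 11, so cells of pools 1 to 3 cannot all be taken as separate cells. A pool held 34755906 to 55600377 unique molecular identifiers (UMIs, 1 per captured mRNA molecule), and a cell had a median of 3105 to 11712 in long-term pools, 7730 to 8528 in short-term T22 pools and 22712 to 26017 in short-term T127 pools. Tumors were tagged and mixed before capture, and a map from cells to tumors was not used here. Vehicle was therefore not compared with olaparib, pools are repeated captures of mixed tumors and not biological replicates, and no test between groups was run.

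A level is given in CPM, the gene's UMIs over all UMIs of the cluster on the usual scale, with the range or values over pools. Each 95% interval of a ratio or a share covers counting error only. It treats UMIs or cells as independent and leaves out the spread between pools, tumors or mice, so it can be narrower than the pool range. The kit reads the 3' end of mRNA, and levels are compared between cells and not between genes. A gene was called higher or lower where the ratio of CPM + 1 was at least 2-fold and the pool ranges did not overlap, among genes at a mean of 10 CPM or more. The clusters were made from expression, so a difference between clusters is a description and not a test.

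Keratin filaments assemble from pairs of a type I and a type II keratin, and the pair in use marks the layer of an epithelium. In the mammary duct the outer, myoepithelial layer is known for the pair Krt5 (type II) and Krt14 (type I), whereas the inner layer, which faces the lumen, is known for Krt8 (type II) and Krt18 (type I), with Krt7 and Krt19. Krt15 and Krt17 are type I keratins of basal cells, Krt17 and Krt6a are also induced in stressed or wounded epithelium, and mesenchymal cells carry vimentin in place of keratins.

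The 4 clusters differed in which of the 10 keratins they carried. Malign_2 carried the basal keratins Krt5, Krt14, Krt15 and Krt17 together with low but measurable luminal keratins. Malign_3 carried all 5 luminal keratins and, of the basal ones, Krt14, Krt15 and Krt17, and in long-term pools Krt6a. Its Krt5 level in CPM was not above that in immune cells beyond counting error. Malign_0 and Malign_1 carried Krt8 and Krt18 alone among the 10 genes at 10 CPM or more. At 10 CPM or more and above immune cells were 2 members in each T127 cluster and 9 in each T22 cluster, all but Krt6a in Malign_2. In Malign_3 the missing member was Krt5 in long-term and Krt6a in short-term pools, where Krt5 passed by a margin within its counting error. The count in Malign_3 was 8 without long-term pool 1 (Krt6a lost) and 8 without short-term T22 pool 1 (Krt5 lost). The share of all genes that meet this rule in each cluster is not given here. These counts therefore describe the members alone and are not set against other genes.

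**Figure D1:**
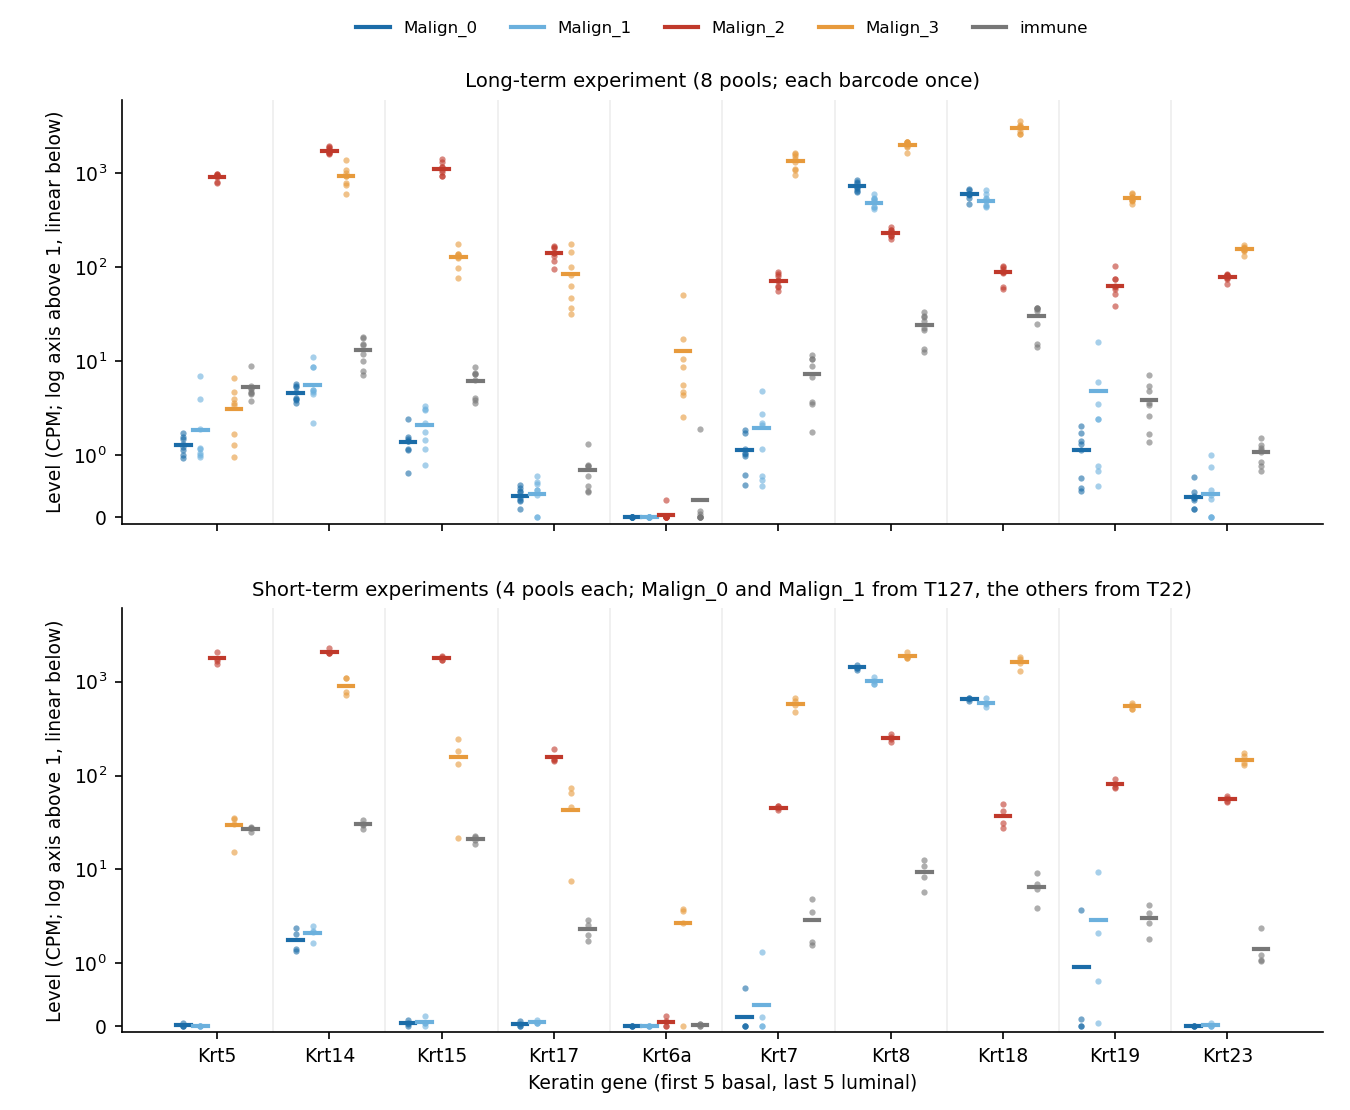
Level of each keratin in CPM (vertical axis, logarithmic above 1 CPM and linear below) for 10 genes (horizontal axis) in the long-term pools (top) and the short-term pools (bottom); each point is 1 pool and each bar the level over all pools. In both panels the Malign_2 points (red) lie above the Malign_3 points (orange) for Krt5 and Krt15 and below them for Krt7, Krt8, Krt18, Krt19 and Krt23, and for Krt8 and Krt18 the Malign_0 and Malign_1 points (blue) lie between those of the other clusters.

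Among the basal keratins that entered the calls, Krt5 differed most between the clusters of T22. In Malign_2 of the long-term pools, the lowest pool was at 789.8, the median at 937 and the highest at 986 CPM, and in Malign_3 the 3 values were 0.972, 3.47 and 6.58 CPM. No pool of Malign_3 came near a pool of Malign_2, and Krt5 was lower in Malign_3 by 295-fold (95% interval 223 to 399), on 49 UMIs in Malign_3. Immune cells of the same pools had 5.23 CPM (pools 3.72 to 8.74), so the Krt5 level of Malign_3 in CPM did not exceed that in immune cells. The fold thus rests on a level no higher than this background, which its interval does not cover. In the short-term T22 pools 1 to 4, Malign_2 was at 1739.6, 2070.1, 1533 and 1671 CPM and Malign_3 at 35.1, 15.3, 30.5 and 34.6 CPM, beside 27.5, 28.2, 24.9 and 27.7 CPM in immune cells. There too Malign_3 overlapped the immune cells, at 1.10 times their level (95% interval 0.929 to 1.29).

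Krt14, the usual partner of Krt5, did not follow it. In the long-term pools Malign_2 had a lowest, median and highest pool of 1611, 1718 and 1926 CPM, and Malign_3 had 597, 929 and 1379 CPM. The pools did not overlap, but the difference of 1.87-fold (95% interval 1.84 to 1.91) was under the 2-fold limit, and Krt14 in Malign_3 stood 71.6-fold above immune cells. In the short-term T22 pools Malign_2 was at 2037, 2255, 2018 and 1998 CPM and Malign_3 at 774, 1092, 1085 and 723 CPM, a difference of 2.32-fold (95% interval 2.25 to 2.38). Krt14 was lower in Malign_3 than in Malign_2 in each of the 12 pools.

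Krt15 was lower in Malign_3 than in Malign_2 without loss of all signal. The long-term pools had a lowest, median and highest value of 919.8, 1111 and 1401 CPM in Malign_2 and 77.1, 131 and 176 CPM in Malign_3, a difference of 8.54-fold (95% interval 8.16 to 8.94). The short-term T22 pools had 1858, 1840.1, 1681 and 1681 CPM in Malign_2 and 243, 21.5, 180.4 and 134 CPM in Malign_3. Pool 2 of these was far below the other 3 in Malign_3 and within the range of immune cells (18.8 to 22.6 CPM).

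Krt17 spread widely over the pools of Malign_3, with a lowest, median and highest value of 31.3, 72.1 and 178 CPM in the long-term pools against 95.9, 141 and 166 CPM in Malign_2. The ranges of both clusters overlapped there. In the short-term T22 pools Krt17 was at 143, 191, 149.6 and 145 CPM in Malign_2 and 7.55, 65.5, 46.2 and 73.7 CPM in Malign_3, with no overlap and a difference of 3.71-fold (95% interval 3.25 to 4.26). Few cells decided the level in Malign_3: 6 of 907 long-term cells held 50% of the 1338 UMIs, against 78 of 1352 cells in Malign_2.

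Among malignant clusters Krt6a was found almost only in Malign_3, and there in few cells. Malign_3 of the long-term pools 1 to 8 had 49.8, 17.1, 4.37, 5.51, 8.67, 4.71, 10.5 and 2.52 CPM, pool 1 being far above the rest, and 3 cells held 50% of the 202 UMIs. Without long-term pool 1 the level over all pools was 7.28 in place of 12.8 CPM. Malign_2 had 1 Krt6a UMI in long-term and 3 in short-term pools, and Malign_0 and Malign_1 had 0 in both experiments, which allows up to 0.0494 CPM in long-term Malign_0 (3 counts). Of the 42 Krt6a UMIs in long-term immune cells, 35 were in 1 cell of CD14-PF4, the only one of its 98 cells with a Krt6a UMI. Because its mean over both T22 clusters was under 10 CPM, Krt6a did not enter the calls.

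The T127 clusters carried almost no basal keratin. In the long-term pools Krt5, Krt14, Krt15 and Krt17 were at 1.29, 4.55, 1.38 and 0.346 CPM in Malign_0 and 1.82, 5.49, 2.08 and 0.380 CPM in Malign_1, each below the level in immune cells of the same pools, which was 5.23, 13.0, 6.12 and 0.753 CPM. These long-term pools also held T22 cells. In the short-term T127 pools, which held none, Krt14 stayed at 1.34, 2.37, 2.04 and 1.42 CPM in Malign_0 and 2.14, 2.50, 1.65 and 2.21 CPM in Malign_1, while 2908 immune cells had 0 Krt14 UMIs, which allows up to 0.0998 CPM (3 counts over all 4 pools). Krt14 was therefore at least 17.9-fold higher in Malign_0 and at least 21.2-fold higher in Malign_1 than in immune cells, taking the floor as their level, and the counting interval of the ratio starts at 14.4 and 17.1. Its UMIs lay in 3.70% of Malign_0 and 4.23% of Malign_1 cells, and 20 cells held 50% of them in each cluster. The 2 clusters together had 1 Krt5 UMI, in Malign_0.

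Among luminal keratins, Krt8 and Krt18 were found in all 4 clusters. Krt8 had a lowest, median and highest long-term pool of 1627, 2076 and 2156 CPM in Malign_3, 625, 713 and 836 CPM in Malign_0, 413, 517 and 605 CPM in Malign_1 and 200.2, 228 and 269 CPM in Malign_2. Malign_3 was thus highest and Malign_2 lowest with no overlap, and Malign_0 lay above Malign_1, also with no overlap. Krt18 had 2573, 3060.2 and 3607 CPM in Malign_3, 473, 595 and 672 CPM in Malign_0, 433, 517 and 651 CPM in Malign_1 and 58.7, 88.8 and 103 CPM in Malign_2. The order of the clusters was the same, but the pools of Malign_0 and Malign_1 overlapped. Malign_3 exceeded Malign_2 by 8.72-fold (95% interval 8.47 to 8.98) for Krt8 and by 34.5-fold (95% interval 33.0 to 36.1) for Krt18.

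In the short-term pools Krt8 was at 1803, 2048, 1818 and 1786 CPM in Malign_3 and 245, 225, 279 and 257 CPM in Malign_2 of T22. It was at 1405, 1408, 1496 and 1339 CPM in Malign_0 and 943, 1011, 1109.8 and 945 CPM in Malign_1 of T127. Krt18 was at 1585, 1748, 1303 and 1836 CPM in Malign_3, 31.3, 27.6, 49.3 and 42.4 CPM in Malign_2, 663, 674, 660.2 and 621 CPM in Malign_0 and 595, 580.0, 672 and 532 CPM in Malign_1. Every pool of Malign_2 was below every pool of the other clusters for both genes.

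Krt7, Krt19 and Krt23 were keratins of the T22 clusters. Krt7 had a lowest, median and highest long-term pool of 943, 1367 and 1620.5 CPM in Malign_3 and 55.0, 72.0 and 88.4 CPM in Malign_2, a difference of 18.9-fold (95% interval 18.0 to 19.9), and Krt7 was at 1.12 and 1.92 CPM in the T127 clusters. Krt19 had 465, 534 and 607 CPM in Malign_3 and 38.1, 62.4 and 103 CPM in Malign_2, a difference of 8.61-fold (95% interval 8.15 to 9.10). Krt23 had 129.8, 156 and 173 CPM in Malign_3 and 65.2, 80.0 and 83.5 CPM in Malign_2, and its difference of 1.96-fold (95% interval 1.85 to 2.08) was just under the limit although no pools overlapped. In Malign_0 and Malign_1 these 3 genes lay at or below the level of immune cells, apart from 1 Krt23 UMI in short-term Malign_1 and Krt19 in Malign_1, at 4.78 CPM in long-term and 2.92 CPM in short-term pools, where 1 cell held 122 of 189 and 1 cell 97 of 239 UMIs. Long-term pool 4 was the highest of the 8, at 15.7 CPM, and the next was at 5.99 CPM. Without long-term pool 4 Krt19 in Malign_1 was at 1.86 CPM and without short-term T127 pool 4 at 0.955 CPM, each below the immune level. In short-term T127 immune cells, however, 1 cell held all 64 Krt19 UMIs (2.13 CPM) and 1 cell 13 of the 14 Krt7 UMIs. Each of these immune levels thus rests on 1 cell.

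The short-term T22 pools gave the same directions for these 3 genes. Krt7 was at 557, 662, 473 and 617 CPM in Malign_3 and 47.1, 45.4, 46.9 and 42.6 CPM in Malign_2, a difference of 12.6-fold (95% interval 11.9 to 13.3). Krt19 was at 592, 516, 508 and 557 CPM in Malign_3 and 81.7, 73.6, 90.7 and 75.5 CPM in Malign_2, a difference of 6.85-fold (95% interval 6.53 to 7.20). Krt23 was at 129, 136, 160.3 and 174 CPM in Malign_3 and 60.0, 57.9, 52.9 and 53.5 CPM in Malign_2, a difference of 2.62-fold (95% interval 2.41 to 2.84). No pool of one cluster reached into the range of the other for any of them.

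Of the 9 members measured at 10 CPM or more on average in the T22 clusters, 4 were higher in Malign_3 in the long-term pools (Krt7, Krt8, Krt18 and Krt19), where 7.36% of all 7270 genes tested were, and 2 were lower (Krt5 and Krt15), where 8.72% of genes were. In the short-term T22 pools 5 were higher (these 4 and Krt23) against 8.41% of 8249 genes, and 4 were lower (Krt5, Krt14, Krt15 and Krt17) against 9.69%. Over all 10 members, Krt6a included, the median log2 ratio of Malign_3 to Malign_2 was 2.02 in long-term and 1.58 in short-term pools. Over all genes tested it was 0.02 and 0.05. Krt6a was not among the genes tested, and its log2 ratios were 3.73 and 1.79. The member median and the gene median are therefore not over like sets. Log2 ratios in long-term pools ran from -7.80 for Krt5 to 5.09 for Krt18. Leaving out long-term pool 1 added Krt14 to the lower members, leaving out long-term pool 3 added Krt23 to the higher ones, and leaving out pools 1, 2 and 3 added both.

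**Figure D2:**
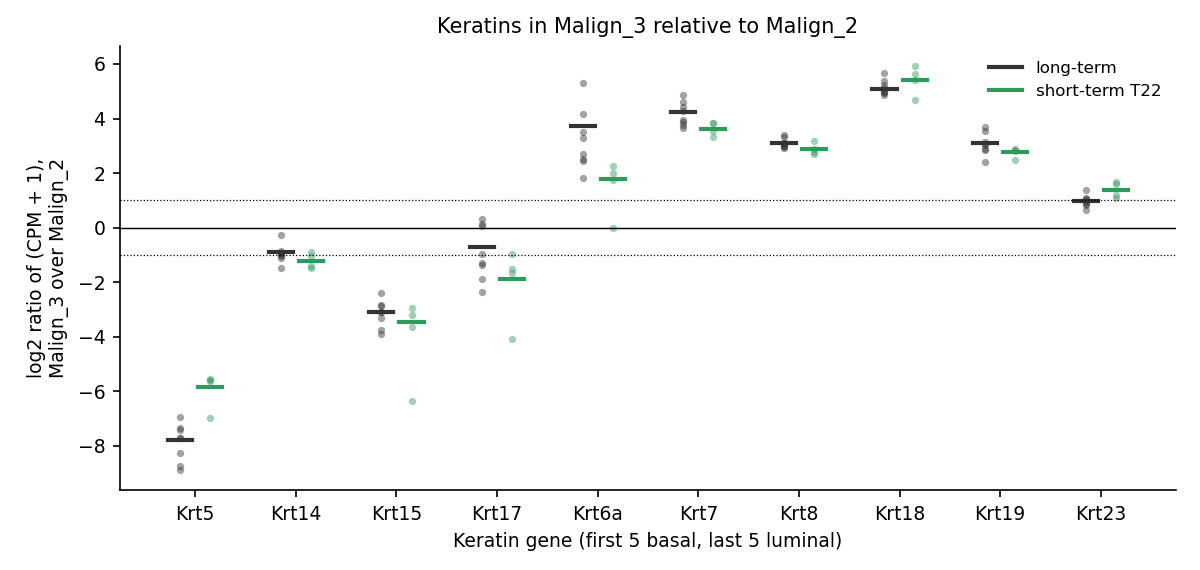
Log2 ratio of CPM + 1 in Malign_3 over Malign_2 (vertical axis) for the 10 keratins (horizontal axis); points are pools, bars the ratio over all pools, and dotted lines mark 2-fold. Bars lie at -7.80 (long-term) and -5.84 (short-term T22) for Krt5 and at 5.09 and 5.40 for Krt18, and the Krt17 points of the long-term pools fall on both sides of 0.

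Between the T127 clusters only Krt8 and Krt18 were at a level that could be compared. Krt8 was lower in Malign_1 than in Malign_0 by 1.53-fold (95% interval 1.50 to 1.56) in long-term and 1.41-fold (95% interval 1.40 to 1.42) in short-term pools, and Krt18 by 1.19-fold (95% interval 1.17 to 1.22) and 1.10-fold (95% interval 1.08 to 1.11). Neither reached 2-fold, so 0 of 2 members were called, where 1.45% of all genes tested were called in long-term and 1.63% in short-term pools, in either direction.

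Between the models, 6 of 9 members were higher in Malign_2 and Malign_3 than in Malign_0 and Malign_1 of the long-term pools (Krt14, Krt15, Krt17, Krt7, Krt19 and Krt23), where 9.85% of 7494 genes tested were, and 0 were lower, where 12.0% were. The fold between the nearer clusters, on CPM + 1, was 143 for Krt14, 62.2 for Krt17, 57.9 for Krt23 and 11.0 for Krt19. For Krt19 it rests on Malign_1 at 4.78 CPM, where 1 cell held 122 of 189 UMIs. Without long-term pool 4 that level was 1.86 CPM. The same 8 pools held cells of both models, so these differences lie within each pool. Krt5 was not called because Malign_3 was near the T127 clusters, and Krt8 and Krt18 were not because the T127 clusters lay between Malign_2 and Malign_3.

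Of the gene lists followed beside the keratins, the epithelial markers went one way between the T22 clusters of the long-term pools and the adhesion genes both ways. These counts stand against the 7.36% of genes that were higher and 8.72% that were lower. Counts in short-term T22 pools stand against 8.41% and 9.69%. Of 5 epithelial markers, 4 (Epcam, Cldn3, Cldn4 and Cldn7) were higher in Malign_3 than in Malign_2 and 0 were lower, with the tight junction proteins Cldn4 at 239 against 1.62 CPM, Cldn7 at 544 against 14.8 CPM and Cldn3 at 1058 against 39.8 CPM. The 5 markers summed to 14.4 to 20.1 CPM over the pools of Malign_0, 9.87 to 37.5 in Malign_1, 972 to 1143 in Malign_2 and 4429 to 5314 in Malign_3. In Malign_0 and Malign_1 Epcam was at 3.30 and 5.87 CPM, while Cldn7, at 12.8 and 12.0 CPM, was near Malign_2. Trp63, the transcription factor of basal epithelial cells, was at 87.2 CPM in Malign_2 (pools 76.4 to 103), 0.697 in Malign_3, 0.362 in Malign_0 and 0.607 in Malign_1. Of 12 epithelial transcription factors, 3 were higher in Malign_3 (Klf5, Elf3 and Ehf), 1 was lower (Trp63) and 8 were not called or too low. Elf3 was at 33.1 against 3.32 CPM. Elf5, a factor of the alveolar lineage, was at 12.1 against 1.02 CPM, on average too low to be called there but called in short-term T22 pools (24.4 against 0.859 CPM). In those pools 4 factors were higher and 1 lower, against 8.41% and 9.69% of genes. Of 16 genes of the desmosomes and hemidesmosomes to which keratins attach, 2 were higher (Pkp1 and Pkp2), 5 were lower (Pkp3, Dsc3, Dst, Itga6 and Col17a1) and 9 were not called or too low. In short-term T22 pools 1 was higher (Pkp2), against 8.41% of genes, and 7 were lower, these 5 with Dsp and Plec, against 9.69%. Dsc3, a desmosomal cadherin of basal layers, was at 132 CPM in Malign_2 and 1.77 in Malign_3, Col17a1, the hemidesmosomal collagen, at 144 and 2.28, and Pkp2, a desmosomal plaque protein, at 0.765 and 47.0.

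Vim, which encodes vimentin, was higher in the T127 than in the T22 clusters and, like the basal keratins Krt5 and Krt15, higher in Malign_2 than in Malign_3, at 9947 CPM in Malign_0, 8820.5 in Malign_1, 1356 in Malign_2 and 349 in Malign_3. Of 8 other intermediate filament genes, 0 were higher in long-term pools and 1 in short-term T22 pools (Lmnb2, 22.9 against 7.15 CPM), and 2 were lower in Malign_3 than in Malign_2 in both, Vim and Synm (synemin, 20.7 against 1.27 CPM), while Lmnb1, a nuclear lamin, was at 71.5 against 63.4 CPM. The 4 fibroblast markers summed to 3951 to 4968 CPM over the pools of Malign_0, 3747 to 4903 in Malign_1, 744 to 987 in Malign_2 and 18.5 to 166 in Malign_3, none of the 4 genes being at 0 in a cluster and Dcn giving most of each sum in Malign_0 and Malign_1, at 4305 and 4324 CPM. Of these markers 2 were lower in Malign_3 than in Malign_2 (Col1a2, 75.9 against 8.17 CPM, and Dcn, 772 against 55.4 CPM) and Col1a1 was at 10.8 against 3.61 CPM. The collagens did not follow Dcn in the T127 clusters. In Malign_0 and Malign_1 Col1a2 was at 6.03 and 7.06 CPM and Col1a1 at 3.92 and 6.53 CPM, each below Malign_2 and below immune cells (11.4 and 6.94 CPM). Pdgfra went with Dcn, at 155 and 118 CPM against 1.91 in Malign_2. The 6 immune markers summed to 37.3 to 60.4, 38.6 to 59.7, 51.2 to 96.4 and 39.0 to 222 CPM, and the 3 endothelial markers to at most 9.41 CPM in any pool. Of these 9 markers 0 were called, with Lyz2 at 47.8 against 87.4 CPM and Cd68 at 10.0 against 11.3 CPM in Malign_2 and Malign_3. Of 5 skin keratinocyte genes 1 was higher in Malign_3 (Sbsn, 47.3 against 7.02 CPM in Malign_2), and of 4 milk protein genes 1 was lower (Csn3, 97.4 against 606 CPM), while Csn2 spread from 17.0 to 335 CPM over the pools of Malign_2. The counts of the epithelial, skin, milk protein, fibroblast, immune and endothelial lists were the same in short-term T22 pools. All list counts stand against 7.36% of genes higher and 8.72% lower in long-term pools, and 8.41% and 9.69% in short-term T22 pools. The median log2 ratio of Malign_3 to Malign_2 in long-term pools was 4.70 for the epithelial list, 1.09 for the transcription factors, -0.01 for the adhesion genes, -0.04 for the other filaments, 0.00 for the skin list, -1.34 for the milk proteins, 0.31 for the immune, -2.21 for the fibroblast and 0.03 for the endothelial markers, all their genes included, beside 0.02 over all genes tested. The part of other cells in the keratin levels was not tested.

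Between the long-term and the short-term pools few keratins of a cluster were called. Of 9 members 1 was called in Malign_2, where 10.7% of genes tested were, namely Krt18, which was 2.34-fold (95% interval 2.20 to 2.50) higher in long-term pools (pools 58.7 to 103 against 27.6 to 49.3 CPM). Krt18 was also higher in long-term immune cells, at 29.7 against 6.56 CPM, and the part of this background in the call was not tested. In Malign_3, 2 of 9 were called against 13.8% of genes. Krt7 was 2.33-fold (95% interval 2.24 to 2.42) higher in long-term pools, with 943 to 1620.5 CPM against 473 to 662 (immune cells 7.30 against 2.89 CPM), and Krt5 was 9.58-fold (95% interval 6.91 to 13.5) lower, as it was in the immune cells of these pools (5.23 against 27.1 CPM). Krt5 in Malign_2 was 1.92-fold (95% interval 1.89 to 1.95) lower in long-term pools, with no overlap and just under the limit, and was called when short-term T22 pool 3 was left out.

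In Malign_1, 1 of 2 members was called against 20.4% of genes, Krt8, which was 2.09-fold (95% interval 2.06 to 2.12) lower in long-term pools. In Malign_0, 0 of 2 were called against 20.2% of genes, with Krt8 1.92-fold (95% interval 1.90 to 1.94) lower, and Krt8 was called there once the 5% of cells with most UMIs in each pool were left out. Krt18 differed by 1.10-fold (95% interval 1.08 to 1.11) in Malign_0 and 1.20-fold (95% interval 1.18 to 1.22) in Malign_1. Long-term and short-term pools differed in depth, duration of dosing, library and transplant setting, since co-transplanted tumors are in the long-term pools alone, and these cannot be told apart here. Cells of Malign_0 had a median of 19775 UMIs in long-term and 36205 in short-term pools.

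Whether basal and luminal keratins lay in the same cells was read from cells thinned at random to 3000 UMIs each, since a deeper cell shows more genes. In Malign_2 of the long-term pools, 66.1% (95% interval 63.5 to 68.6, pools 58.8 to 74.6) of cells had at least 1 UMI of a basal and 1 of a luminal keratin, 29.5% had basal keratins alone, 3.77% luminal ones alone and 0.592% neither. In Malign_3 every one of 907 cells had a luminal keratin after thinning, and 53.5% (95% interval 50.2 to 56.8, pools 48.4 to 58.9) had a basal one too. The short-term T22 pools had 65.4% (95% interval 63.1 to 67.6, pools 63.5 to 67.3) in Malign_2 and 54.1% (95% interval 47.3 to 60.9, pools 49.0 to 63.6) in Malign_3. In the T127 clusters the share was 1.89% (95% interval 1.42 to 2.46, pools 1.19 to 3.17) in Malign_0 and 1.51% (95% interval 0.994 to 2.18, pools 0.341 to 3.42) in Malign_1 of the long-term pools, and 0.358% and 0.508% in short-term pools. Immune cells, of which 3187 long-term, 2957 short-term T22 and 364 short-term T127 cells were too shallow to thin while no malignant cell was, had 0.658% in long-term and 1.00% in short-term T22 pools, and 0 of 2544 cells in short-term T127 pools (95% interval up to 0.145%). A basal keratin of any kind was found in 5.29%, 19.3% and 0% of these immune cells, which is the background for Malign_3, where every cell had a luminal keratin, and it was above the 2.53% in Malign_0 and 1.95% in Malign_1 of the long-term pools. Median depth before thinning was 15779.5 UMIs in Malign_2, 15056 in Malign_3 and 9351 in the immune cells kept, all long-term.

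Without thinning the share with both kinds was 97.9% in Malign_2, 79.1% in Malign_3, 13.3% in Malign_0, 12.8% in Malign_1 and 2.99% in immune cells of the long-term pools. In the short-term pools it was 99.3% in Malign_2, 81.7% in Malign_3, 3.94% in Malign_0 and 4.61% in Malign_1, beside 4.43% in immune cells of T22 and 0% in those of T127. At both depths over 50% of the cells of the T22 clusters had both kinds of keratin mRNA, but thinned to 1000 UMIs the share was 30.7% in Malign_2 and 36.1% in Malign_3 of the long-term pools, and with 2 UMIs of each kind required at 3000 it was 36.8% and 38.1%. Cells with both kinds had a median of 15566 against 16416 UMIs in Malign_2 and 15715 against 14541 in Malign_3. The leukocyte gene Ptprc had a UMI in 7.38% of long-term Malign_2 cells with both kinds and 4.37% of the others, and in 8.04% and 7.58% in Malign_3. With the 5% of cells with most UMIs in each pool left out, the thinned share was 66.7% in Malign_2 and 52.9% in Malign_3, and with long-term pools 1, 2 and 3 left out it was 66.9% and 53.4%.

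**Figure D3:**
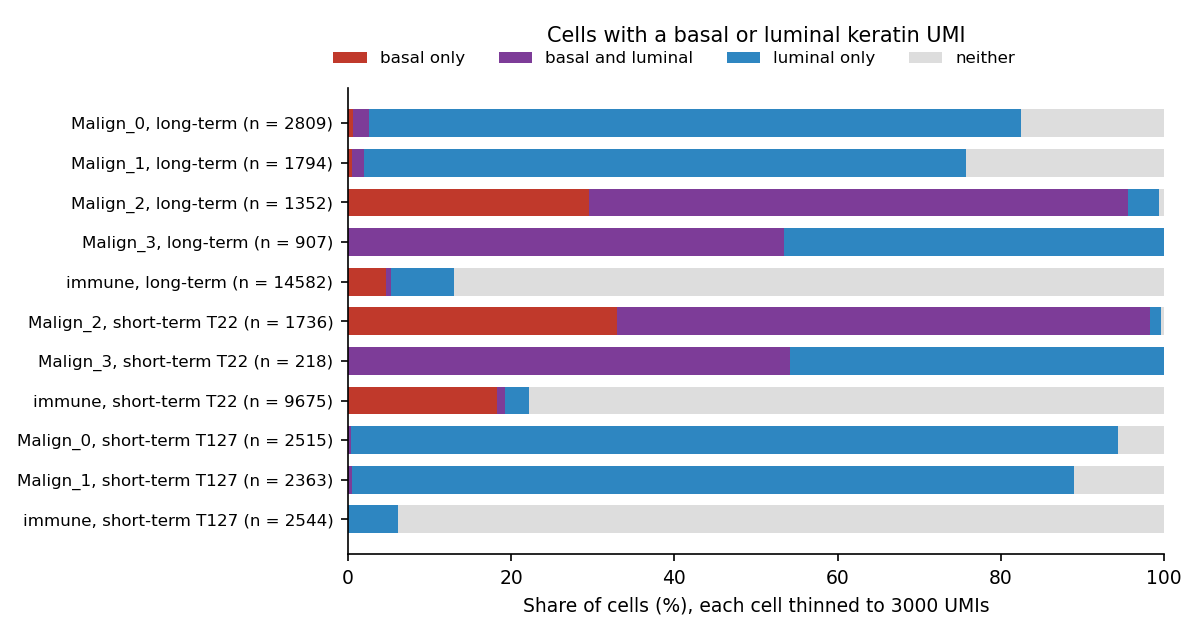
Share of cells (horizontal axis, %) with a UMI of a basal keratin only (red), of both kinds (purple), of a luminal keratin only (blue) or of neither (grey) after thinning to 3000 UMIs, by cluster and experiment with the number of cells. Purple covers 66.1% of long-term Malign_2 and 53.5% of long-term Malign_3, blue covers 80.0% of long-term Malign_0, and grey covers 87.0% of long-term immune cells.

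The partner pairs differed between the clusters in the same way as the levels. Krt5 and Krt14 were both detected in 67.0% (95% interval 64.4 to 69.5, pools 63.3 to 74.2) of long-term Malign_2 cells and in 0.221% of Malign_3 cells, although 48.7% of Malign_3 cells had a Krt14 UMI. Krt8 and Krt18 were both detected in 96.7% (95% interval 95.3 to 97.8, pools 94.4 to 100) of Malign_3 cells, 44.8% of Malign_0, 37.7% of Malign_1 and 8.73% of Malign_2 cells. In Malign_2 a Krt8 UMI was found in 44.2% and a Krt18 UMI in 14.1% of cells, and Krt18 was found in 19.7% of cells with a Krt8 UMI against 9.55% of those without. In Malign_0 the same shares were 64.3% and 39.8%. A luminal keratin was found in 69.1% of Malign_2 cells with a basal one and 86.4% of the few without in long-term pools, and in 66.5% and 75.9% in short-term pools, where 95.6% and 98.3% of cells had a basal keratin.

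Within Malign_3 the UMIs of the other basal keratins lay mostly in cells with Krt14, in splits of cells that were chosen after the data were seen. Few cells carried them: after thinning Krt14 was seen in 48.7% of long-term cells, Krt15 in 10.8%, Krt17 in 5.18% and Krt6a in 1.10%, and 18 cells held 50% of the Krt15 UMIs. The 442 long-term cells with a Krt14 UMI after thinning were compared with the 465 without one, by all UMIs of the other genes, at a median depth of 15717 and 14587 UMIs. Krt17 was at 158 against 10.1 CPM, higher in the Krt14 cells of 8 of 8 pools, and Krt15 at 184 against 70.2 CPM, higher in 7 of 8. All 202 Krt6a UMIs of the cluster were in cells with a Krt14 UMI. The luminal keratins differed little, with Krt7 at 1434 against 1239 CPM, Krt8 at 2182 against 1814 CPM, Krt18 at 2842 against 3205 CPM and Krt19 at 545 against 538 CPM, and so did Epcam, at 2806 against 2753 CPM. Trp63 stayed near 0 in both, at 0.880 against 0.511 CPM, and Acta2, the smooth muscle actin of myoepithelial cells, was at 31.8 against 13.4 CPM, higher in 7 of 8 pools, and at 26.2 against 16.3 CPM in short-term T22 pools. The fibroblast marker Dcn was at 18.7 against 92.7 CPM, higher in the Krt14 cells of 2 of 8 pools, and the other way in short-term T22 pools, at 15.4 against 4.16 CPM, and its part in the split was not tested.

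In short-term T22 pools Krt17 was at 83.8 against 1.89 CPM and Krt15 at 234 against 85.2 CPM in 105 Malign_3 cells with and 113 without a Krt14 UMI, and all 14 Krt6a UMIs were in the former. Luminal keratins were also higher there in the cells with Krt14, Krt7 at 750.0 against 400.1 CPM, Krt8 at 2113 against 1600.2 CPM, Krt19 at 632 against 469.7 CPM and Krt23 at 1.32 times the level without, each in 4 of 4 pools, as was Vim, at 283 against 205 CPM, while Krt18 was at 1658 against 1567 CPM. Krt5 was at 49.2 against 10.6 CPM, and 3 cells held 50% of its UMIs in the cluster.

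Within Malign_2 a minority of cells had some of the luminal keratins at a higher level. Krt18 lay in 14.1% of long-term cells after thinning, and 46 of 1352 cells held 50% of its UMIs. At the same depth 4.22% of long-term immune cells had a Krt18 UMI and 8.35% a luminal keratin UMI of any kind. The part of this background in the split was not tested. The 190 cells with a Krt18 UMI had more Krt8 (397 against 200.1 CPM, higher in 8 of 8 pools), Krt19 (111 against 54.6 CPM, 7 of 8) and Krt7 (96.9 against 66.2 CPM, 6 of 8) than the 1162 cells without. Luminal Krt23 (83.1 against 78.1 CPM, higher in 3 of 8 pools) and basal Krt17 (126 against 143 CPM, higher in 4 of 8) differed little. The cells with Krt18 had less Krt5 (425 against 1001 CPM) and Krt14 (1022 against 1858 CPM), lower in all 8 pools. The fibroblast marker Dcn was also lower in all 8, at 597 against 802 CPM, and its part in the split was not tested. Cldn3, a tight junction protein that was not used for the split, was at 154 against 20.1 CPM, higher in 8 of 8 pools, and Acta2 at 3296 against 7966 CPM. Median depth was 16922 and 15652 UMIs, and whether some of these cells are captures of 2 cells was not tested. In short-term T22 pools Krt17 (156 against 158 CPM) and Krt23 (55.6 against 56.2 CPM) again differed little. For the other genes those pools gave the same directions, with Krt5 at 1056 against 1807 CPM, Krt8 at 520.4 against 233 CPM, Cldn3 at 157 against 17.6 CPM and Acta2 at 3059 against 4790.3 CPM. There the cells with Krt18 were the shallower ones (24413 against 25240.5 UMIs).

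**Figure D4:**
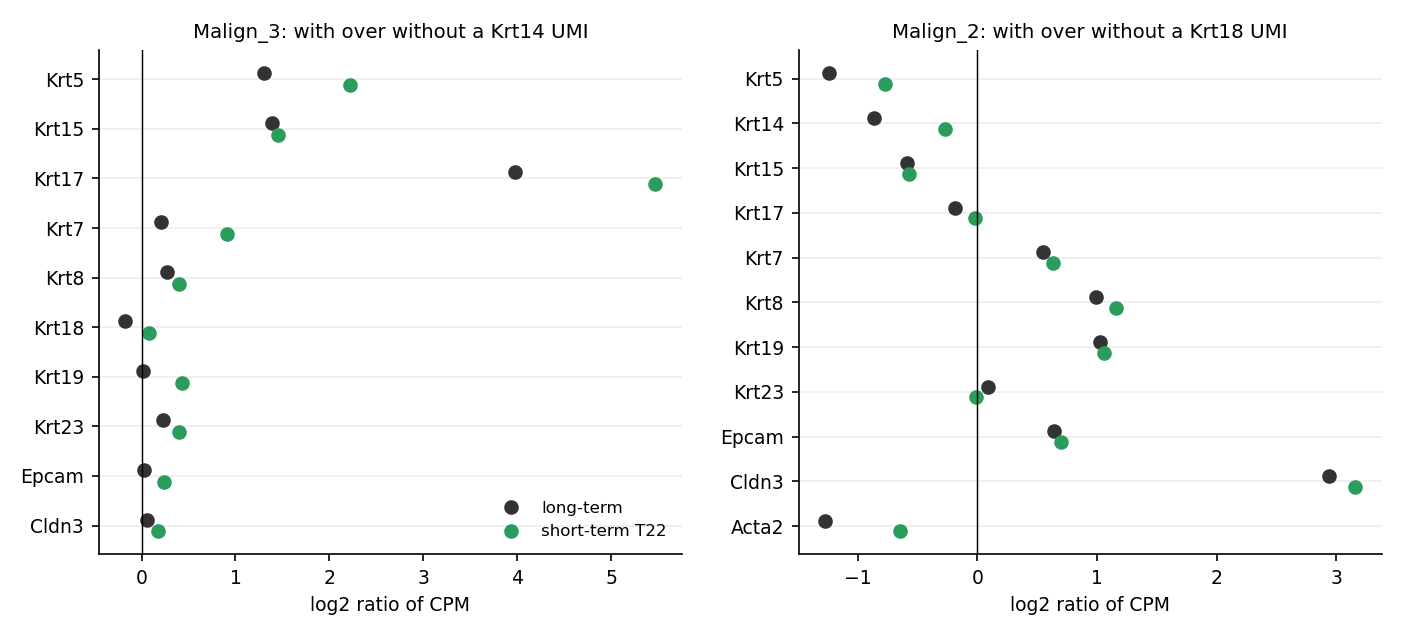
Log2 ratio of CPM (horizontal axis) in Malign_3 cells with over without a Krt14 UMI (left) and in Malign_2 cells with over without a Krt18 UMI (right), for the genes named on the vertical axis, in long-term (black) and short-term T22 (green) pools. On the left Krt17 lies far to the right of the luminal keratins, at a ratio of 15.7 in long-term and 44.3 in short-term pools, and on the right Cldn3 lies farthest to the right and Krt5 and Acta2 to the left of 0.

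A split of long-term Malign_2 by Krt5 gave the same picture from the basal side, apart from Krt7 and Krt17. The 961 cells with a Krt5 UMI had Krt14 at 2167 against 722 CPM, Krt17 at 172 against 66.1 CPM, Trp63 at 103 against 50.3 CPM and Acta2 at 9278 against 2584 CPM relative to the 391 cells without, each higher in 8 of 8 pools. Krt18 was at 41.8 against 195 CPM and Krt19 at 46.8 against 101 CPM, each lower in 8 of 8 pools. Krt8 was at 202 against 293 CPM, higher in the Krt5 cells of 1 of 8 pools. The fibroblast marker Dcn (896 against 482 CPM) and Vim (1497 against 1028 CPM) were also higher in the Krt5 cells of 8 of 8 pools. Their part in the split was not tested. Krt7 did not go with Krt18 and Krt19 here, at 79.8 against 49.3 CPM, higher in 8 of 8 pools, and Krt23 was at 77.4 against 82.3 CPM. In short-term T22 pools (1461 cells with and 275 without) these genes had the same directions. There Krt14 was at 2371 against 610 CPM, Krt7 at 47.5 against 35.6 CPM, Krt8 at 230 against 355 CPM and Krt18 at 19.3 against 129 CPM.

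Immune cells, which lack the keratin filaments of epithelium, gave the background. The 10 members summed to 91.3 CPM in 17769 long-term immune cells, 104 CPM in 12632 short-term T22 and 39.6 CPM in 2908 short-term T127 immune cells, against 2539, 6202 and 1854 CPM in the malignant cells of the same pools. For some keratins, the share of the members' UMIs in immune cells was near that in the malignant cells captured with them, and for others it was not. Krt5, Krt14 and Krt15 made up 26.0%, 29.1% and 20.3% of the members' UMIs in short-term T22 immune cells and 25.6%, 31.7% and 25.9% in the malignant cells, but 5.72%, 14.2% and 6.71% in long-term immune cells beside 6.14%, 15.8% and 7.86% in long-term malignant cells. In short-term T127 immune cells all 5 basal members were at 0 UMIs, and Krt8 made up 52.3% beside 65.9% in malignant cells. Krt18 made up 6.30% in short-term T22 immune cells and 3.12% in the malignant cells, and Krt19 5.38% and 0.101% in short-term T127 pools, where 1 B cell held the Krt19 UMIs of the immune cells.

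Among 15 immune clusters CD14-PF4, a small monocyte and macrophage cluster, stood apart in long-term and short-term T22 pools, with the members at 1932 CPM in 98 long-term cells and 1332 CPM in 66 short-term T22 cells. The other 14 long-term immune clusters lay between 40.7 and 236 CPM. In CD14-PF4 1 cell held 347 of 2033 long-term and 362 of 1008 short-term T22 member UMIs, and without it the level was 1657 and 887 CPM. In short-term T127 pools CD14-PF4 was at 181 CPM in 66 cells, where 1 cell held 102 of 132 member UMIs, and at 42.8 CPM without that cell. B cells were at 628 CPM in 38 T22 and 2677 CPM in 42 T127 cells of the short-term pools, where 1 cell held 116 of 134 and 1 cell 311 of 317 member UMIs, and without these cells the level was 96.3 and 69.8 CPM. Without CD14-PF4, an alternative chosen after seeing the data, the sum was 78.5 CPM in long-term, 95.1 CPM in short-term T22 and 36.1 CPM in short-term T127 immune cells. In the stromal clusters of the long-term pools Krt8 was at 16.8 CPM in i_CAF, 6.74 CPM in my_CAF and 17.5 CPM in endothelial cells, Krt18 at 17.3, 9.43 and 15.8 CPM, and Krt14 at 14.1, 4.04 and 14.0 CPM.

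Of the 43 other keratin genes, 3 reached 10 CPM in a malignant cluster, 30 had UMIs below that level and 10 had none in malignant cells. Krt27, a type I keratin known from the inner root sheath of the hair follicle, was found in the T127 clusters, at 107 CPM in Malign_0 (pools 80.5 to 132) and 33.8 CPM in Malign_1 (pools 18.2 to 60.5) of the long-term pools, and at 150.5 (pools 126 to 186) and 88.7 CPM (pools 73.8 to 105.5) in short-term T127 pools. It was thus lower in Malign_1 with no overlap of pools in either experiment. Krt27 was at 1.62 CPM in Malign_2 and 1.20 CPM in Malign_3 of the long-term pools, against 3.39 CPM in immune cells, and had 0 UMIs in the T22 clusters of the short-term pools. Krt80 was found in Malign_3, at 8.81 CPM in long-term and 21.6 CPM in short-term T22 pools, and at 0.36 CPM or less in the other clusters, but immune cells had 6.61 and 6.24 CPM. Krt10, a keratin of differentiated epidermis, lay between 13.9 and 24.8 CPM in all malignant clusters and at 4.19 CPM in long-term immune cells.

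For each member, the 3 genes most like it were taken by Pearson's r of log2(CPM + 1) over the 22 deposited clusters of the long-term pools, among 11871 genes. These are descriptions over points that share libraries. They mostly set Malign_2, Malign_3 or both against the rest, the T127 clusters included. Krt8 and Krt18 were each other's closest gene (r = 0.98), followed by Perp and Clec2f for Krt8 and by Foxq1 and Mlph for Krt18. Krt14 was most like Esrp1 (r = 0.95), an epithelial splicing factor, Nrtn and Apoc1, Krt15 was most like Apoc1 (r = 0.94), Krt14 and Lgals7, and Krt17 was most like Sox10 (r = 0.96), Paqr6 and Mia. Krt5 was most like A530053G22Rik (r = 0.94), Pgm5 and Gm32585, which had their highest level in Malign_2. Krt7 (r = 0.97) and Krt19 (r = 0.95) were both most like Alox12e, then Cyp2f2 and Cldn3 for Krt7 and Wfdc18 and Krt7 for Krt19. Krt23 was most like Folr1 (r = 0.96), Wipf3 and Nipal2, and Krt6a most like Tmem213 (r = 0.97) and then Atp10b among the genes reported. Both of these genes had their second highest level in CD14-PF4, where Krt6a was at 33.3 CPM from 1 cell. The part of that cell in the r values was not tested. For each of the 3 genes like Krt7, the second highest cluster after Malign_3 was CD14-PF4.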

How the data were processed

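Single-cell RNA libraries were made by the authors with the 10x Chromium 3' v3.1 kit from tumors tagged with hashtag antibodies, and were aligned and counted with Cell Ranger 6.0.0 on GRCm38, introns included. Per the study's methods, cells with few genes or a high mitochondrial share and doublets marked by Scrublet were removed in its analysis. Whether this was done before the raw tables were made public is not stated there. The deposited tables hold raw UMI counts per cell with the authors' cluster name, and these counts were used as deposited. For 30845 long-term cells, barcodes found in several pools were kept at their deepest copy, which left 25723. Counts were summed per cluster and pool with Python 3.11.15 and numpy 2.4.6, and intervals (exact Poisson for levels, Clopper-Pearson for shares, conditional binomial for ratios) came from scipy 1.17.1. Pool ranges show the spread between captures only, not between tumors or mice, so calls that rest on them are descriptions of these captures. Scripts were checked on simulated data. Levels rest on 5242278 to 94086467 UMIs per malignant cluster and experiment. Alternatives tried were all barcode copies, leaving out pools, cells with 1000 or more genes, cells without the top 5% by UMIs, a pseudocount of 10 CPM, a 4-fold limit and other thinning depths.

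The 10 keratins and the marker lists were chosen with earlier results of these data known. Genes named were the 10 members, other keratins at 10 CPM or more in a malignant cluster, the 3 genes of each list with the largest ratio of Malign_3 to Malign_2, and the 3 genes most like each member. An item that this rule selects is not reported here. Genes outside this rule that are listed by name because they were called, or that are used in splits, were named after their values were seen.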

Additional observations from a re-analysis of the deposited data

Results flagged for a closer look

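Among 70 sets of pool levels tested for a pool far from the others, 8 stood out by Dixon's criterion, where chance gives about 1 in 20 sets. In the long-term pools Krt19 in Malign_1 was at 15.7 CPM in pool 4, with the next pool at 5.99 CPM, and 1 cell held most of its UMIs. Krt6a in Malign_3 was at 49.8 CPM in pool 1, with the next at 17.1 CPM. Krt23 in Malign_2 was lowest in pool 7, at 65.2 CPM, with the next at 75.3 CPM, and Krt5 in immune cells was highest in pool 8, at 8.74 CPM, with the next at 5.40 CPM.

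In the short-term T22 pools, pool 2 was the high one for Krt14 in Malign_2 (2255 CPM, next 2037), Krt17 in Malign_2 (191 CPM, next 149.6) and Krt8 in Malign_3 (2048 CPM, next 1818). Krt23 in immune cells was highest in pool 1, at 2.37 CPM, with the next at 1.24 CPM.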

How the results depend on the processing

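The direction of each called member was the same under every alternative, and the share of cells with both kinds of keratin changed its order between Malign_2 and Malign_3. Between experiments, no paired analysis was possible because pools of different experiments with the same number held different tumors. Clusters captured in the same pools could be paired by pool, but no fit or test was made that a pool block could enter. Their ratios within each pool are given as values and not as a paired test. The calls compare pool ranges without pairing. Keeping every copy of a barcode, leaving out long-term pools 1, 2 and 3, keeping cells with 1000 or more detected genes, or using a pseudocount of 10 CPM left each count of members within 1.5 times its value. With a 4-fold limit, 2 members were lower in Malign_3 than in Malign_2 of the short-term T22 pools in place of 4. The same limit left 0 in place of 1 lower in long-term Malign_1, and 0 in place of 1 higher in long-term Malign_2 and in long-term Malign_3, each against short-term cells. With the top 5% of cells by UMIs left out, 1 member in place of 0 (Krt8) was lower in long-term than in short-term Malign_0. Leaving out 1 pool at a time gave 0 to 1 members lower in long-term than in short-term Malign_2, the 1 being Krt5 without short-term T22 pool 3.

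The share of cells with a basal and a luminal keratin UMI moved with depth. Without thinning it was 13.3% in Malign_0, 12.8% in Malign_1, 97.9% in Malign_2 and 79.1% in Malign_3 of the long-term pools, and 99.3% in Malign_2, 81.7% in Malign_3, 3.94% in Malign_0 and 4.61% in Malign_1 of the short-term pools. Thinned to 1000 UMIs it was, in the same order, 0.392%, 0.502%, 30.7% and 36.1%, then 33.1%, 40.4%, 0.119% and 0.169%. With 2 or more UMIs required of each kind it was 0.107%, 0.111%, 36.8% and 38.1%, then 34.0%, 42.2%, 0% and 0.0423%. The order of Malign_2 and Malign_3 therefore turned with depth: Malign_2 had the larger share at 3000 UMIs and without thinning, and Malign_3 at 1000 UMIs or with 2 UMIs required. Basal keratins in the T127 clusters of the long-term pools lay below the CPM level in immune cells, so no level of their own can be given for those pools. The detection of Krt14 there moved with depth. After thinning it was seen in 1.50% of Malign_0, 1.23% of Malign_1 and 2.68% of immune cells, and without thinning in 8.12%, 7.86% and 7.15%. In short-term T127 pools Krt14 was above the level in immune cells in both clusters.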

Other observations

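Krt83, a keratin of hair, was higher in immune than in malignant cells, which was noticed after its values were seen. It was at 12.3 CPM in long-term, 77.5 CPM in short-term T22 and 4.29 CPM in short-term T127 immune cells, and at 2.33 CPM or less in each malignant cluster. Krt23 was at 16.0 CPM in the long-term fibroblast cluster i_CAF (169 UMIs, pools 2.52 to 38.2 CPM), against 1.06 CPM in immune cells of the same pools, and this too was chosen after its values were seen. None of these levels was tested.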
